A study of Bos taurus with 6 samples.

Results

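MHC class II molecules present peptides to CD4+ T cells, and the 8 genes described here are 7 of their chains and CIITA, the coactivator that switches class II transcription on. The genes were chosen by name from a deposited expression table: BOLA-DQB, BOLA-DRB3, BOLA-DRB2, BOLA-DOA, BOLA-DOB, BOLA-DYB, DSB and CIITA, 8 of 2040 listed genes. The RNA came from longissimus dorsi, a muscle running beside the spine, in 2 cattle breeds, Angus (3 libraries) and Chinese Simmental (3 libraries), with samples taken at ribs 12 and 13 at 18 months of age and no treatment. The labels do not say whether the libraries of a breed came from different animals, or anything of sex, diet or slaughter. The p-values therefore set the difference between breeds only against the spread of these libraries. Every gene in the table had been selected by the authors for differing between these same libraries, since the smallest absolute log2 fold change in the authors' deposited table was 1.00 and the largest adjusted p was 0.0492.

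A class II molecule pairs an alpha with a beta chain, is made in B cells, dendritic cells and macrophages, and carries peptides cut in endosomes to the cell surface. In cattle the genes lie in a class IIa group with DR and DQ and a class IIb group with DO, DM, DY and DSB. DR and DQ are the classical presenting molecules, DRB3 is the main expressed DR beta gene and highly polymorphic, and the number of DQ genes differs between haplotypes. DO does not present peptide but holds back DM, the enzyme-like molecule that loads it, and is made mainly in B cells. CIITA binds no DNA itself and acts on the factors bound at class II promoters. In a bulk sample labelled as muscle, all of these transcripts come from whichever cells carry them. More cells of a type and more RNA per cell cannot be told apart in bulk RNA.

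All 8 genes were higher in Angus, by 2.24-fold (BOLA-DRB3) to 4.49-fold (BOLA-DRB2) in the mean of normalized counts (reads per gene after division by a size factor that the authors gave each library). All 8 were past an adjusted p of 0.05 in edgeR's quasi-likelihood test over the whole table. The same held for 24.9% of the 1989 genes tested, 99.9% passed in one direction or the other, and 25.0% of the authors' list was higher in Angus, so the 8 calls follow from how the table was made and are no evidence of a difference. Their median log2 fold change, Angus minus Chinese Simmental, was 1.78, against 1.60 over the 497 tested genes that were higher in Angus and -1.57 over all tested genes. In the authors' deposited table the 8 log2 ratios, Chinese Simmental over Angus, ran from -2.11 (BOLA-DRB2) to -1.13 (BOLA-DRB3). The selection did not use how the genes stand to each other, although each had to pass by itself, which limits their ratios. It also limits how far libraries of a breed can vary in a listed gene. Of what moved beside the 8 genes, only selected genes can be seen. RefSeq's genes on ARS-UCD2.0 held all 8 names. There BOLA-DRB3 and BOLA-DRB2 are neighbours among protein-coding genes, as are BOLA-DYB and BOLA-DOB, and CIITA has no class II gene beside it. BOLA-DRA, BOLA-DQA2, BOLA-DQA5 and BOLA-DYA, neighbours of genes of the set, are not among the listed genes. Of 11 further class II chain names searched, only BLA-DQB is listed, with the counts of BOLA-DQB. The 8 genes are thus the selected part of the class II group, and whether the DR and DQ alpha chains differed is unknown here.

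**Figure D1:**
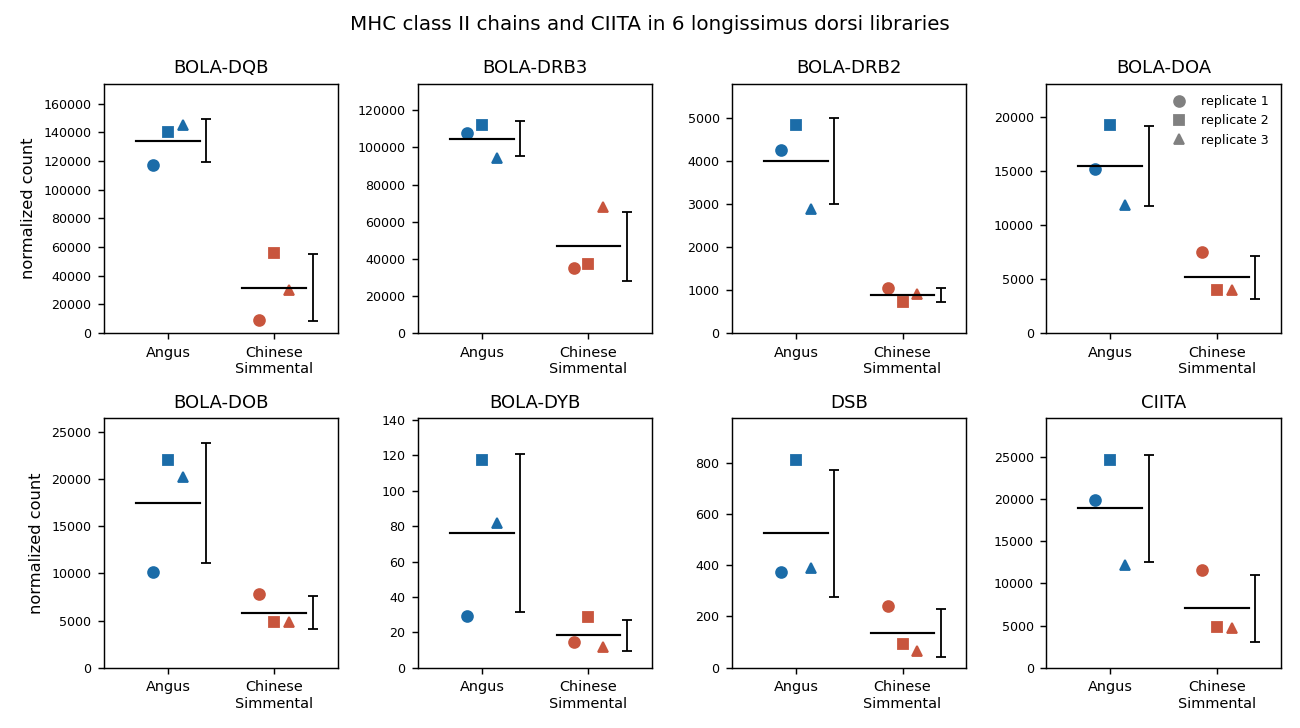
Normalized counts (y axis, linear, from 0) of each gene in the 3 Angus (blue) and 3 Chinese Simmental (red) libraries, with marker shape for the replicate number, a line at the breed mean and a bar of ± 1 SD beside it. In all 8 panels the lowest Angus library lies above the highest Chinese Simmental library, by a factor of 1.02 for BOLA-DYB and 1.05 for CIITA.

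The DQ beta chain had the highest normalized counts of the set in Angus, and in Chinese Simmental its libraries differed most. BOLA-DQB stood at 117025, 140444 and 144949 in Angus replicates 1 to 3 and at 9061, 55813 and 29902 in Chinese Simmental replicates 1 to 3. The Angus libraries lay close together, with a coefficient of variation of 11.2%, and the Chinese Simmental libraries spread over a 6.16-fold range, with replicate 1 lowest. The mean was 134139 ± 14992 (SD, n = 3) against 31592 ± 23422, a log2 fold change of 2.09 ± 0.62 (SE, edgeR quasi-likelihood test, adjusted p = 0.0130). Without Chinese Simmental replicate 2 it was 2.78, and without Chinese Simmental replicate 1 it was 1.65. The same counts are listed under a second name, BLA-DQB, so they are 1 locus here. RefSeq gives BLA-DQB as a synonym of BOLA-DQB1, a separate DQ beta gene, and how reads of near-identical DQ copies were assigned is not given in the sources used here, so the level of either copy is uncertain.

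The DR beta genes moved by different amounts. BOLA-DRB3 stood at 107938, 111962 and 94349 in Angus and at 34771, 37414 and 67870 in Chinese Simmental, where replicate 3 was the high one. With means of 104750 ± 9229 and 46685 ± 18394 (SD, n = 3) its log2 fold change of 1.17 ± 0.43 (SE, edgeR adjusted p = 0.0253) was the smallest of the set. This call was lost without Angus replicate 1, 2 or 3 (1.14, 1.12 and 1.24) and without Chinese Simmental replicate 2 (1.03), with edgeR adjusted p up to 0.0881. In these fits the fold change moved by less than its SE. Calls over the whole table fell as well with 1 library fewer, those higher in Angus from 495 to 291 without Angus replicate 2. BOLA-DRB2, a second DR beta gene that is expressed weakly in cattle, stood at 4271, 4839 and 2899 in Angus and at 1042, 717 and 915 in Chinese Simmental. It had the largest fold change of the set, 2.17 ± 0.38 (SE, edgeR adjusted p = 0.00351), and kept its call without any 1 library, at 2.01 to 2.35. Normalized counts of BOLA-DRB3 were 25.3, 23.1 and 32.5 times those of BOLA-DRB2 in Angus replicates 1 to 3, and 33.4, 52.2 and 74.2 times in Chinese Simmental replicates 1 to 3. The DRB3 to DRB2 ratio was thus higher in every Chinese Simmental library, a pair picked after its values were seen and so given with no test. Reads of these paralogs can be split between them in counting, so the ratio is uncertain.

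The DO chains, the inhibitors of peptide loading, moved by nearly the same amount. BOLA-DOA, the alpha chain, stood at 15256, 19282 and 11890 in Angus and at 7495, 3967 and 4000 in Chinese Simmental. BOLA-DOB, the beta chain, stood at 10187, 21991 and 20208 in Angus and at 7821, 4851 and 4837 in Chinese Simmental. For both, Chinese Simmental replicate 1 was the highest library of its breed and Angus replicate 2 the highest of the other. Their log2 fold changes were 1.59 ± 0.41 and 1.58 ± 0.43 (SE, edgeR adjusted p = 0.00832 and 0.00970). Both kept their calls without any 1 library, at 1.40 to 1.96 for BOLA-DOA and 1.38 to 1.85 for BOLA-DOB. The ratio of DOA to DOB counts was 1.50, 0.877 and 0.588 in Angus and 0.958, 0.818 and 0.827 in Chinese Simmental, so the Angus libraries lay on both sides of the Chinese Simmental ones.

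The class IIb genes BOLA-DYB and DSB had few reads. BOLA-DYB, the DY beta chain, had 34, 94 and 83 raw counts in Angus and 14, 31 and 12 in Chinese Simmental. The exact Poisson 95% interval, which covers counting error only, was 23.5 to 47.5 for the lowest Angus count and 21.1 to 44.0 for the highest Chinese Simmental count. The breeds are therefore not separated beyond counting error in those libraries. Its log2 fold change was 2.04 ± 0.71 (SE, edgeR adjusted p = 0.0214), a call that failed on leaving out Angus replicate 2 or 3 (1.59 and 1.99) or replicate 1 or 3 of Chinese Simmental (1.91 and 1.81). DSB, a DR-like beta chain gene of the same group, had normalized counts of 373, 811 and 390 in Angus and of 241, 93.5 and 67.0 in Chinese Simmental. DSB was again highest in Angus replicate 2 and Chinese Simmental replicate 1, as the DO chains were in Chinese Simmental. Its log2 fold change was 1.97 ± 0.61 (SE, edgeR adjusted p = 0.0148), a call lost without Angus replicate 2 at 1.51, and 2.71 without Chinese Simmental replicate 1.

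CIITA, the coactivator of class II transcription, stood at 19907, 24598 and 12115 in Angus and at 11578, 4800 and 4715 in Chinese Simmental. Angus replicate 3 and Chinese Simmental replicate 1 lay within 1.05-fold of each other, so the breeds were barely separated. The means were 18874 ± 6305 and 7031 ± 3938 (SD, n = 3), and the log2 fold change was 1.42 ± 0.48 (SE, edgeR adjusted p = 0.0197). The call was lost without Angus replicate 2 (1.19) and without Chinese Simmental replicate 2 or 3 (both at most 1.21). On the FPKM scale, which divides by transcript length and library total, the breeds overlapped, at 2955, 3076 and 1539 in Angus and 1856, 636 and 551 in Chinese Simmental. BOLA-DYB overlapped on that scale too, at 2.03, 6.26 and 3.13 against 0.191, 2.15 and 0.399. The other 6 genes did not overlap on either scale, and for all 8 the Angus normalized counts lay above the Chinese Simmental ones. Over all listed genes that held for 24.4% on normalized counts and 22.5% on FPKM.

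**Figure D2:**
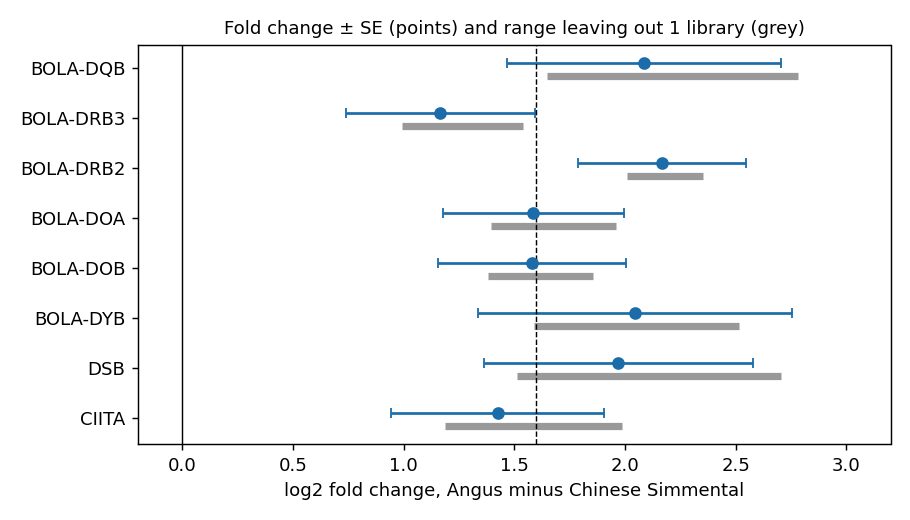
Log2 fold change, Angus minus Chinese Simmental, of the 8 genes (blue points, bars ± 1 SE, edgeR) with the range over fits that leave out 1 library (grey bars). The dashed line is the median of 1.60 over tested genes higher in Angus, which BOLA-DQB, BOLA-DRB2, BOLA-DYB and DSB exceed, while BOLA-DRB3 is lowest at 1.17.

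Between genes, only values per length can be compared, and FPKM placed them in a different order from counts. Mean FPKM in Angus was 18749 ± 2303 (SD, n = 3) for BOLA-DRB3, 2523 ± 854 for CIITA, 1125 ± 360 for BOLA-DOB, 219 ± 26.1 for BOLA-DQB and 125 ± 31.9 for BOLA-DOA. BOLA-DRB2 at 22.2 ± 6.46 and DSB at 22.0 ± 8.41 did not differ beyond their spread, and BOLA-DYB was lowest at 3.81 ± 2.20. In Chinese Simmental BOLA-DRB3 again led at 8013 ± 2304 FPKM, BOLA-DQB (47.3 ± 40.5) and BOLA-DOA (39.3 ± 20.6) did not differ beyond their spread, and DSB at 7.11 ± 5.14 and BOLA-DRB2 at 3.76 ± 0.895 likewise overlapped.

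The deposited FPKM of DQ and DR beta do not go with their counts. BOLA-DQB had more reads than BOLA-DRB3 in all 3 Angus libraries, yet its FPKM in Angus was 190, 225 and 242, against 20907, 19017 and 16324 for BOLA-DRB3. Counts per unit of FPKM, set against the median listed gene of the same library, were 6.14 for BOLA-DQB and 0.0545 for BOLA-DRB3 (geometric means over 6 libraries). That is a 113-fold difference in the length the FPKM imply, for beta chains of the same family. CIITA stood at 0.0718 on this scale, at the 8.19th percentile of 1856 genes with reads in all libraries, although its transcript is long. The order of FPKM given above is therefore as deposited, and which transcript lengths it rests on is unknown here. For BOLA-DRB2, DSB and BOLA-DYB this measure also moved between libraries, with an SD of 0.53, 0.57 and 0.98 on the log2 scale against a median of 0.08. In Chinese Simmental replicate 1 it was 4.20 for BOLA-DRB2 and 1.57 to 1.80 in the other 5 libraries.

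Set against the mean of the others, each of the 8 genes overlapped between the breeds, although the DRB3 to DRB2 ratio above did not. The log2 level of each gene relative to the mean of the other 7 was compared by a two-sided exact permutation test, which cannot go below p = 0.1 with 3 libraries a breed. BOLA-DRB3 was relatively lower in Angus by a mean log2 difference of -0.66 (exact p = 0.2, adjusted p = 0.914 over the 8 genes), at 4.75, 4.04 and 4.38 against 4.47, 4.75 and 5.94. BOLA-DQB was relatively higher in Angus by 0.71 (exact p = 0.8, adjusted p = 0.914), at 4.88, 4.41 and 5.09 against 2.25, 5.41 and 4.59. Without Chinese Simmental replicate 1 that difference became -0.20, so its direction rests on 1 library. CIITA relative to the chains was at 1.96, 1.54 and 0.996 in Angus and 2.66, 1.36 and 1.54 in Chinese Simmental, a difference of -0.36 (exact p = 0.7, adjusted p = 0.914) that became 0.05 without Chinese Simmental replicate 1. For the other 5 genes the differences ran from -0.31 (BOLA-DOB) to 0.39 (BOLA-DRB2), and all 8 genes overlapped between breeds. The tests are too small to show that the balance is alike, and each gene compared had been selected for differing.

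**Figure D3:**
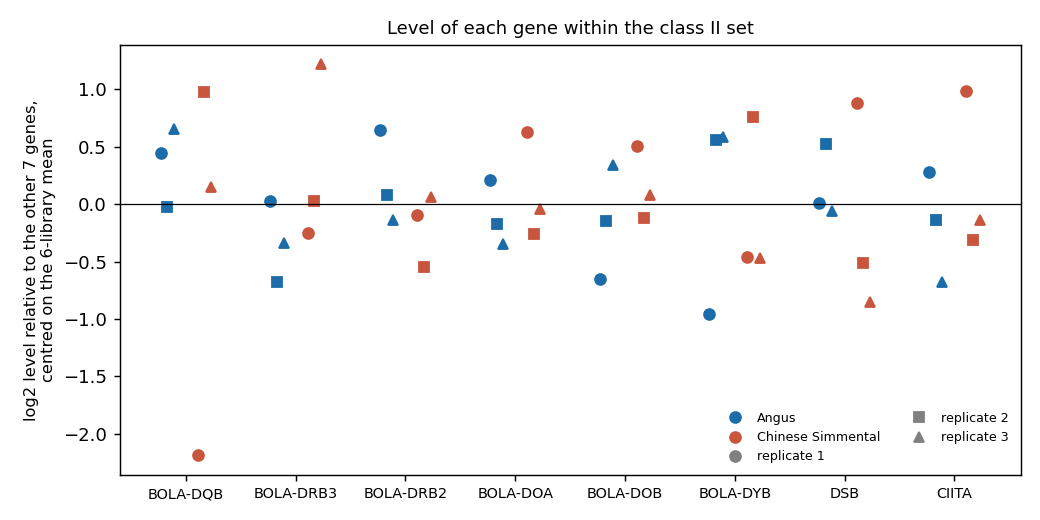
Log2 level of each gene relative to the mean of the other 7 genes, per library, centred on that gene's mean over the 6 libraries (blue, Angus; red, Chinese Simmental; marker shape, replicate). BOLA-DQB in Chinese Simmental replicate 1 is the point farthest from 0, while the colours overlap for all 8 genes.

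Chinese Simmental replicate 1 stood apart within the set. It held the lowest BOLA-DQB of the 6 libraries and, within its breed, the highest CIITA, DSB, BOLA-DOA, BOLA-DOB and BOLA-DRB2. BOLA-DQB counts were 0.783 times those of CIITA there and 5.71 to 12.0 times in the other 5 libraries. BOLA-DQB over BOLA-DRB3 was 0.261 in that library, 0.441 in Chinese Simmental replicate 3 and 1.08 to 1.54 in the other 4. Allele and copy number at DQ were not measured here.

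Listed B cell genes were higher in Angus, as the class II genes were. All 17 listed of 21 B cell markers passed the threshold with Angus higher (edgeR, Benjamini-Hochberg), with a median log2 fold change of 1.94, and the count was 17 with any 1 library left out. Of all tested genes 24.9% passed with Angus higher and 99.9% in either direction, so passing is a property of the table, and what describes the list is that its members share 1 direction. Their summed normalized counts were 281477 to 386183 in Angus against 75301 to 110835 in Chinese Simmental, and those of the 8 class II genes were 274986 to 324043 and 72023 to 112317. In Angus, replicate 2 had the highest sum of both sets. Within Chinese Simmental the orders were opposite. There the B cell sums were 110835, 90059 and 75301 in replicates 1 to 3, and the class II sums 72023, 107684 and 112317. None of the 17 was at 0 in any library. SPIB, a B cell transcription factor, was at 2.27 ± 0.39, CD79B, a signalling chain of the B cell receptor, at 2.40 ± 0.43, PAX5, the B cell identity factor, at 1.98 ± 0.36 and EBF1, another early B cell factor, at 2.03 ± 0.37 (log2 fold change ± SE). The part of B cells in the class II difference was not tested.

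Relative to the mean of the 17 B cell markers, all 8 genes overlapped between breeds. BOLA-DOA was at log2 levels of 0.14, 0.37 and 0.09 above that mean in Angus and 0.71, 0.21 and 0.47 in Chinese Simmental (difference -0.26, exact permutation p = 0.2, adjusted p = 0.8). BOLA-DRB3 was at 2.97, 2.91 and 3.08 in Angus and 2.93, 3.44 and 4.55 in Chinese Simmental (difference -0.66, exact permutation p = 0.3, adjusted p = 0.8). For BOLA-DRB3 the SD of this level was 0.09 over the Angus libraries and 0.83 over the Chinese Simmental libraries. For CIITA the difference was -0.39 (exact permutation p = 0.5, adjusted p = 0.933) and for BOLA-DQB 0.55 (exact permutation p = 0.9, adjusted p = 1), the latter -0.36 without Chinese Simmental replicate 1. Against CD79A, CD79B and MS4A1 alone, BOLA-DOA and CIITA did not overlap and were relatively lower in Angus, by -0.44 and -0.57 (both exact permutation p = 0.1, the smallest possible, adjusted p = 0.4), and BOLA-DOB was at -0.53 with overlap. These comparisons were added after the data had been seen. The 8 genes and the markers had all been selected for differing, and all were higher in Angus. The breed difference of such a ratio was therefore limited beforehand. Whether class II levels follow B cell content was not tested.

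**Figure D4:**
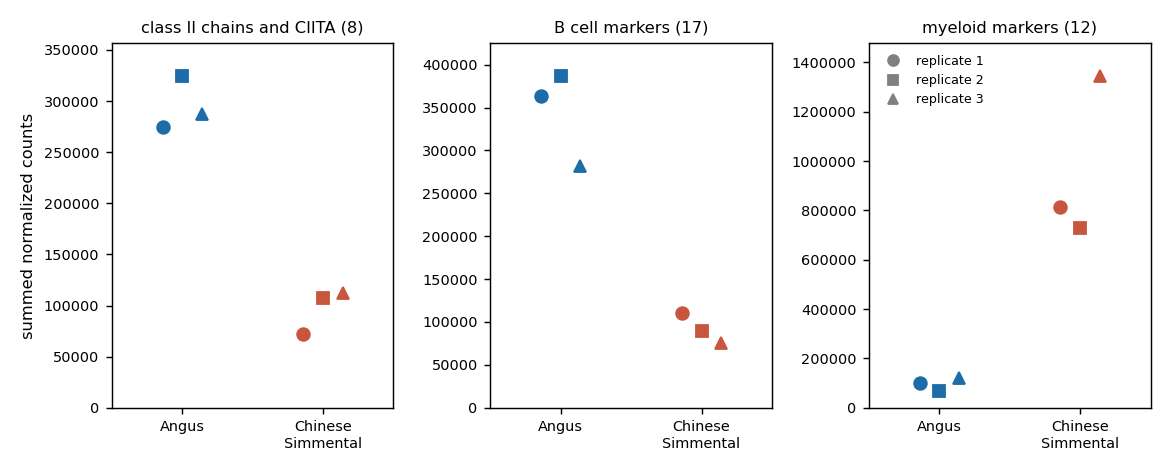
Summed normalized counts (y axes linear, from 0) of the 8 class II genes, 17 listed B cell markers and 12 listed myeloid markers in each library, by breed and replicate. Class II and B cell sums are higher in all 3 Angus libraries (class II at least 274986 against at most 112317) and myeloid sums are higher in all 3 Chinese Simmental libraries.

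Listed myeloid markers moved the other way, and dendritic cell markers in both directions. All 12 listed of 18 myeloid markers were past the threshold as higher in Chinese Simmental, as were 75.0% of tested genes, with a median log2 fold change of -3.40 (-1.57 over all tested genes) and summed counts of 68577 to 120869 in Angus and 728194 to 1343220 in Chinese Simmental. With factors computed over the listed genes 9 of the 12 stayed past it, and FCGR3A turned with TMM factors. CD163, a scavenger receptor of macrophages, was at -4.16 ± 0.47, S100A9 at -4.10 ± 0.57, S100A8 at -3.65 ± 0.48 and VCAN, a proteoglycan of monocytes, at -3.81 ± 0.53. S100A8 and S100A9 are genes of neutrophils as well as monocytes, and S100A9 alone held 199809 to 439297 of the summed counts in Chinese Simmental. The myeloid sum is therefore not one of class II-bearing cells only. Of 15 dendritic cell markers 9 were listed, of which 4 passed with Angus higher and 5 with Chinese Simmental higher, and their summed counts overlapped (28748 to 44128 against 35655 to 42108). The count of 4 was 1 without Angus replicate 2 and 2 without Chinese Simmental replicate 2 or 3, and with factors computed over the listed genes the count of 5 was 0. CD83, a maturation marker of dendritic and B cells, was higher in Angus at 1.53 ± 0.38, and BATF3, a factor of cross-presenting dendritic cells, higher in Chinese Simmental at -2.30 ± 0.48 (-2.92 without Angus replicate 1). ITGAX (CD11c) was at -1.98 ± 0.42 and CD1E at -2.46 ± 0.65 (-3.16 without Angus replicate 1), both higher in Chinese Simmental. None of the 12 myeloid or 9 dendritic markers was at 0 in any library, and their part in the class II values was not tested.

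Markers of other cells were few in the table. None of 13 T cell markers is listed, so T cells were not analysed here. Of 7 plasma cell genes, DERL3, which encodes a protein of the endoplasmic reticulum, was higher in Angus (edgeR adjusted p = 0.00366), and PRDM1 was at -2.19 ± 0.62. PRDM1 stood at 850, 1101 and 1112 normalized counts in Angus and at 1017, 6217 and 6754 in Chinese Simmental, so replicate 1 lay among the Angus libraries, and the call was lost on FPKM and with factors from the listed genes alone. All 4 listed of 7 cytotoxic cell markers were higher in Chinese Simmental (75.0% of tested genes were), among them NKG7 at -1.72 ± 0.46 and GZMA at -1.42 ± 0.50, and 1 to 4 of them stayed past the threshold when 1 library was left out. When factors came from the listed genes alone none of the 4 passed, and PRF1 and NCR1 changed sign, from -1.24 ± 0.42 and -1.27 ± 0.50. VWF of endothelium was at -1.88 ± 0.55, with 1497 to 1937 normalized counts in Angus and 1906, 10260 and 6722 in Chinese Simmental, so replicate 1 again lay among the Angus libraries. Its call was lost with factors from the listed genes alone (-0.50 to -0.45). PDGFRA of fibroblasts was higher in Angus at 1.84 ± 0.70, a call that failed on leaving out Angus replicate 1 (0.76) or replicate 1 or 2 of Chinese Simmental (1.83 and 1.54). Of 20 muscle fibre genes that would check the labelled tissue, only TNNT3 (2.27 ± 0.63, and 3.05 without Chinese Simmental replicate 1) and NEB (1.86 ± 0.53, and 1.19 without Angus replicate 1) are listed. Together they summed to 1461 to 2478 normalized counts in Angus and 365 to 771 in Chinese Simmental, below the summed class II genes in every library. Mean FPKM was 7.06 for TNNT3 and 2.63 for NEB in Angus, and 1.47 and 0.729 in Chinese Simmental. The B cell gene CD79B stood at 298 and 59.3, on the deposited scale whose transcript lengths are unknown here. These 2 muscle genes were thus low beside a B cell gene in both breeds. The other 18 muscle genes were not analysed here, and whether the tissue label holds was not tested.

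Genes known to act on CIITA were listed in both directions, at shares near those of the whole table. Interferon gamma induces CIITA through its receptor and IRF1, while B cells use a promoter of their own, and PRDM1 shuts CIITA off in plasma cells. Of 21 such genes 10 were listed, 8 of them past the threshold with Chinese Simmental higher and 2 with Angus higher (edgeR, Benjamini-Hochberg), and of all tested genes 75.0% and 24.9% did so. IRF1 stood at 19288, 20301 and 18953 in Angus and at 65641, 76584 and 69570 in Chinese Simmental, at a log2 fold change of -1.86 ± 0.37. IFNGR2, a chain of the interferon gamma receptor, stood at 6795, 5943 and 7784 against 14861, 24597 and 23592, at -1.62 ± 0.37. SPI1 (PU.1), a factor of myeloid and B cells, was at -1.88 ± 0.42, and IL10, a cytokine that lowers antigen presentation, rested on 3 to 18 raw counts in Angus, at -3.71 ± 0.81 and -4.79 without Angus replicate 3. The genes that were higher in Angus were IRF4, a factor of activated B cells, at 1.16 ± 0.33, and ZBTB32, a zinc finger repressor, at 1.42 ± 0.38, both named after their values were seen. The call for IRF4 was lost without Angus replicate 2, at 1.01. Size factors computed from the listed genes alone shifted the median gene by 1.32 to 1.36 (log2) toward Angus. JAK2 then changed sign, and 1 of the 8 stayed past the threshold. The part of these genes in the CIITA values was not tested.

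**Figure D5:**
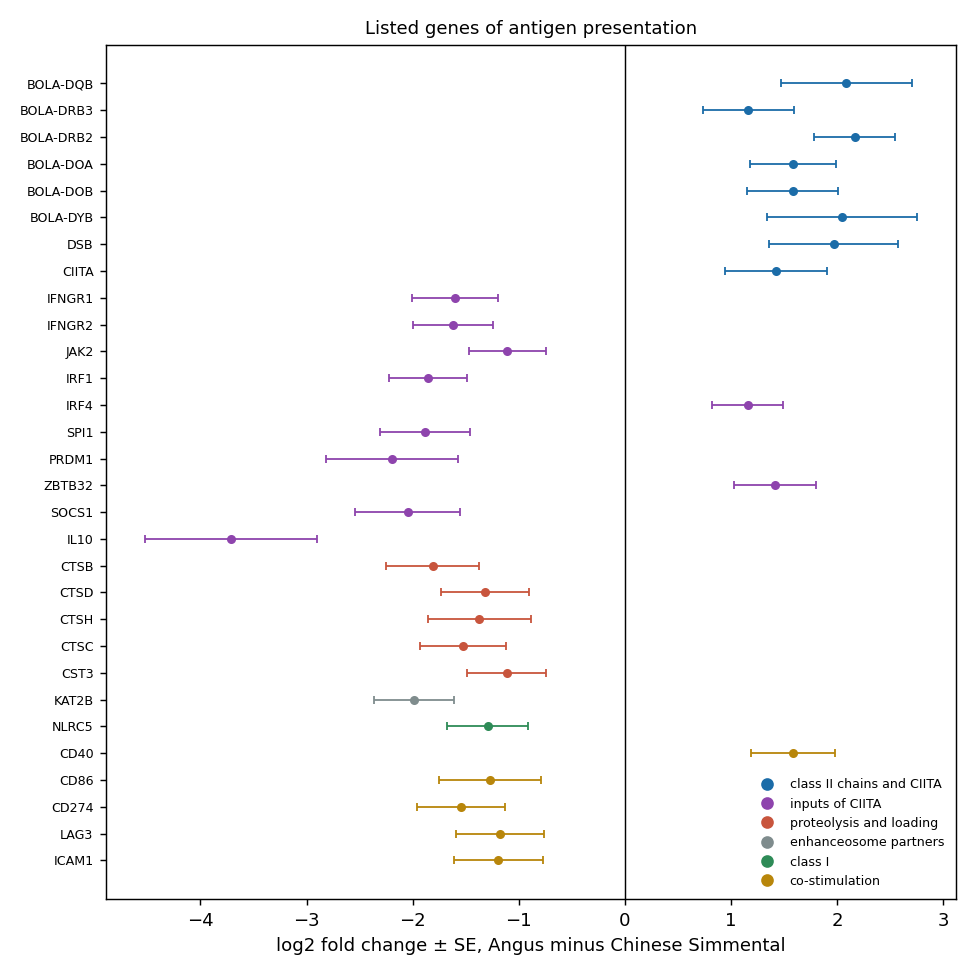
Log2 fold change ± SE (x axis, Angus minus Chinese Simmental, edgeR) of the 8 genes (7 chains and CIITA) and of the listed genes of 5 related lists, coloured by list. The class II genes, IRF4, ZBTB32 and CD40 lie to the right of 0 and the other genes to the left.

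Genes of the steps around class II presentation were few in the table. Of 17 genes that cut antigen, process the invariant chain or load peptide, 5 were listed and all 5 were past the threshold as higher in Chinese Simmental, as 75.0% of tested genes were, so the count says little of these genes. CTSB, a lysosomal protease, was at -1.81 ± 0.44, CTSC, the protease that activates granule enzymes, at -1.52 ± 0.40, CTSD at -1.32 ± 0.41 and CST3, a secreted inhibitor of cathepsins, at -1.11 ± 0.37. CTSD and CST3 changed sign with factors from the listed genes alone, and none of the 5 then passed. CTSD lost its call without Angus replicate 2 (-1.22), and CST3 without Angus replicate 2 (-0.98) or Chinese Simmental replicate 3 (-0.92). The count was 2 without Angus replicate 2 and 3 without Chinese Simmental replicate 3. These proteases are abundant in macrophages, and the myeloid sums were higher in the same 3 libraries; the part of myeloid cells was not tested. Of 20 class II promoter partners only KAT2B, a histone acetyltransferase, was listed, at -1.99 ± 0.38, and its call was lost with factors from the listed genes alone (-0.64 to -0.59). From the class I list of 20 genes only NLRC5 was listed, which does for class I promoters what CIITA does for class II. It stood at 15415, 13806 and 17024 in Angus and at 28168, 48491 and 36621 in Chinese Simmental, -1.29 ± 0.38, the opposite direction to CIITA. That call was lost without Angus replicate 2 (-1.22), and its direction turned, to at most 0.05, with factors computed over the listed genes.

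CD40, the receptor through which T cells license B cells and dendritic cells, was the 1 gene higher in Angus of 5 listed on the co-stimulation list of 15 (24.9% of tested genes were). It stood at 11829, 15078 and 11193 in Angus and at 6024, 2863 and 3780 in Chinese Simmental, at 1.59 ± 0.39 (SE, edgeR adjusted p = 0.00741), and kept its call without any 1 library. The 4 higher in Chinese Simmental included CD274 (PD-L1), an inhibitory ligand, at -1.55 ± 0.41, LAG3, an inhibitory receptor that binds class II, at -1.18 ± 0.41, and ICAM1, an adhesion molecule, at -1.19 ± 0.42. With factors from the listed genes alone none of these 4 passed, LAG3 and ICAM1 changed sign, and CD86 did so with TMM factors. Only 1 of the 4 stayed past the threshold without Angus replicate 2 or without Angus replicate 3.

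The genes whose profile over the 6 libraries was most like the mean of the set were DSCC1, ANKLE1, KLHDC8A, ZPBP2 and NTNG1, with Pearson r from 0.986 to 0.995 on log2 normalized counts. Such values are high for listed genes of the same direction, at a median of 0.912 over the 509 listed genes higher in Angus, 0.966 over the B cell markers and 0.904 over the 8 genes themselves. DSCC1, a subunit of a clamp loader for sister chromatid cohesion, stood at 629, 834 and 656 in Angus and at 332, 357 and 320 in Chinese Simmental, highest in Angus replicate 2 as 7 of the 8 genes were. NTNG1 had 0 counts in all Chinese Simmental libraries and 19.7 to 36.2 normalized counts in Angus. The authors' table annotates 3 assembled loci without a symbol to the class II complex too. MSTRG.21226 was higher in Angus (84.1 ± 9.43 against 20.3 ± 13.2, SD, n = 3) and MSTRG.15543 and MSTRG.16190 were higher in Chinese Simmental (1222 ± 719 against 116 ± 59.2, and 234 ± 52.7 against 42.3 ± 9.94). The annotation of MSTRG.21226 and MSTRG.15543 also holds terms of muscle contraction and sodium channels, so what they encode is uncertain, and the call for MSTRG.21226 was lost without Angus replicate 2 (1.96, from 2.04), while without Chinese Simmental replicate 3 its log2 fold change was 2.69.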

How the data were processed

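RNA of 6 libraries, 3 a breed, was grouped by the breed in the titles. The submitters' processing notes name HISAT2 and ARS-UCD1.2; how reads were counted, and on which strand, is not given in the sources used here. Per the file headers, the deposited table holds counts, FPKM, group means of counts over size factors (a normalized signal), the log2 ratio of the breeds, and raw and adjusted p-values. It lists genes the authors selected (2040, with 1 blank row left out), so library depth is unknown; counts over them summed to 12010803 to 28883725. The authors' size factors (0.801 to 1.17) were solved from the group means with relative residuals up to 1.52e-09.

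Counts were tested with edgeR 4.0.16 in R 4.3.3 (quasi-likelihood, filterByExpr minimum count 10, breed as the term, those size factors, Benjamini-Hochberg over 1989 genes, threshold 0.05); all 8 genes passed the filter. Fold changes of single genes given as ± are log2 ± SE. Relative levels used log2(normalized count + 0.5). The genes, the 16 gene lists and the tests were chosen with earlier results of these data known; the named genes were the 8, up to 4 per list with the smallest p, 5 most alike in profile (symbol, mean FPKM at least 1) and others annotated to the class II complex. The test was tested on simulated data with the same relative spread for every gene. There 1787 of 1987 genes had no change, unlike the real table, where 99.9% passed. It called 0.28% of the unchanged genes, 24% of genes with an absolute log2 change of 1 and 96% at 2. No 2 libraries agreed within sampling noise (chi-square per degree of freedom at least 329). Same-numbered libraries of the breeds deviated together (correlations 0.263, 0.150 and 0.245), by the data and not the labels; differently numbered pairs ran from -0.344 to 0.208, with Angus 3 and Chinese Simmental 2 highest. Alternatives were DESeq2 1.42.0, limma 3.58.1 on log2(FPKM + 1) and log2(FPKM + 0.1), other scalings, no filter, a replicate block and leaving out each library. One gene of the list of genes acting on CIITA is not reported here and was left out of that list's counts.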

Additional observations from a re-analysis of the deposited data

How the results depend on the processing

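The 8 genes kept their direction under every alternative fitted, and the count past the threshold stayed at 8 with no filter, DESeq2, limma on FPKM, the replicate block and factors over the listed genes, was 9 with BLA-DQB counted by itself, 4 to 7 when 1 library was left out (4 without Angus replicate 2) and 6 without Angus replicate 2 and Chinese Simmental replicate 1, a pair chosen after seeing the data. Over the whole table, calls higher in Angus also fell, from 495 of 1989 tested genes to 291 of 2028 without Angus replicate 2. They were 360 to 466 without any other 1 library, so the lost calls are not particular to the 8 genes. The median log2 fold change of the 8 genes, 1.78, was 1.79 with the replicate block, 1.45 to 1.99 without 1 library, and 3.02, 3.02 and 2.99 with TMM, median-of-ratios and upper quartile factors over the listed genes. The pairing by replicate number changed no call of the 8, and of the other 44 genes named by the rule only that of NCR1 (-1.10). With those 3 factors in turn, log2 fold changes turned to 0.052, 0.047 and 0.011 for CTSD, 0.23, 0.21 and 0.18 for CST3, 0.044, 0.049 and 0.0092 for NLRC5, 0.15, 0.17 and 0.12 for LAG3, 0.12, 0.10 and 0.082 for ICAM1, 0.17, 0.19 and 0.14 for PRF1 and 0.19, 0.22 and 0.17 for NCR1, because they centre a table that mostly favours Chinese Simmental.

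No gene separated the breeds relative to the other 7 under the main setting, and 0 to 2 did without 1 library. Without 1 library the relative differences ran from -0.20 to 1.37 for BOLA-DQB, -0.40 to 0.048 for BOLA-DOA, -0.14 to 0.63 for BOLA-DYB, -0.026 to 0.84 for DSB and -0.60 to 0.046 for CIITA. BOLA-DYB was at -0.11 with a pseudocount of 5 and -0.078 on FPKM, and DSB at -0.11 on FPKM. Relative to B cell markers 0 to 1 genes separated without 1 library, and 2 (BOLA-DOA and CIITA) with CD79A, CD79B and MS4A1 as the reference. There the range without 1 library was -0.36 to 1.16 for BOLA-DQB, -0.61 to 0.037 for BOLA-DOB, -0.30 to 0.64 for BOLA-DYB and -0.068 to 0.56 for DSB, with BOLA-DYB at -0.15 against those 3 markers and -0.028 on FPKM and DSB at -0.057 on FPKM. Full separation of 3 against 3 libraries has an exact permutation p of 0.1, and fewer libraries separate more easily. These counts of separated genes are therefore no evidence of a difference. The causes were not tested. The median level over the list's genes, taken per library and then averaged per breed (not the median fold change), gave log2 ratios of 1.91 for B cell and -1.90 for myeloid markers on counts and 1.78 and -1.89 on FPKM. Few reads limit BOLA-DYB, and the selected table limits every test of a single gene.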
